A study of Mus musculus with 21 samples.

Results

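The HSP70 chaperones that cells make without stress (Hspa8, Hspa4, Hspa9 and Hspa14), their cofactors Hspbp1, Bag1 and Bag3, and the heat shock factors Hsf1 and Hsf2 were followed in Ba/F3 cells, an interleukin 3-dependent mouse line usually described as pro-B. All 15 array probes filed under these 9 gene names were taken, of 45281 probes and 30854 target names on the Illumina BeadChip. They cover 8 of the 9 genes. No probe is filed under Hspbp1, and probe 5130563, which its accession assigns to Hspbp1 but which carries a Riken clone name, is given as an addition outside the 15. In batch A, untreated cells were compared with cells actuated continuously for 15 min on a digital microfluidic device, where electrodes move droplets, at 400 Vpp and 1 or 18 kHz. In batch B, untreated cells were compared with cells heated for 15 min at 42, 47 or 52 °C. Each of the 7 groups had 3 arrays, 21 in all, hybridized with RNA from whole cell samples. Nothing in the labels says that replicates came from separate cultures, so a p-value here reflects the scatter of these arrays, which may be technical, and their small number limits the precision. The labels give neither the temperature inside the droplets nor the time from treatment to lysis.

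HSP70 proteins bind unfolded stretches of other proteins and release them in a cycle driven by ATP. J-proteins start the cycle, and nucleotide exchange factors, among them the Bag proteins, HSPBP1 and the HSP110-like chaperone encoded by Hspa4, complete it. Hspa8 encodes HSC70, the cytosolic form present without stress, and Hspa9 encodes mortalin, the form of the mitochondrial matrix. Free HSP70 and HSP90 hold HSF1 inactive. On heating, HSF1 forms trimers, binds inverted repeats of GAA and switches on Hspa1a, Hspa1b, Dnajb1 and Hsph1, and in many cells Bag3 and Hspa8 as well.

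The binding repeats were searched in the 300 bases around gene starts (250 before and 50 after; RefSeq, build GRCm38.p6) to show where the members carry them. The letters GAANNTTC and TTCNNGAA, which read the same on both strands, occurred in 15.1% of all 32851 windows. A window was at hand for 6 of the 9 genes (Hspa4, Hspa14, Hspbp1, Bag1, Bag3 and Hsf2), and 1 of them, that of Bag3, held a match. The matches of Bag3 and of 2 genes that rose at 42 °C are printed below with the repeat in capitals. The longer letters GAANNTTCNNGAA, on either strand, occurred in 0.603% of windows and stood in that of Hsph1.
Bag3, chr7:128523603-128523632, plus strand: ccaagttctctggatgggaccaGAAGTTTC
Hspa1a, chr17:34972242-34972271, minus strand: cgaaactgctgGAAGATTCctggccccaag
Hsph1, chr5:149636287-149636316, minus strand: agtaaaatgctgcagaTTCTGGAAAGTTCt
The repeat lies 43 to 50 bases after the start of Bag3 and 104 to 97 bases before that of Hspa1a. The printed repeat of Hsph1 lies 37 to 49 bases after 1 of its 2 starts. A further match, not printed, began 33 bases before that start. In the window of the other start, matches began 54 bases before it and 16 and 21 bases after it. The windows of Dnajb1 and Hspa4l, which also rose at 42 °C, held no match. A match of letters describes the window and is not a measured binding site.

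Of the 15 probes, 9 were tested in batch A and 10 in batch B, because a probe had to exceed the negative controls (deposited detection p below 0.01) on 3 or more arrays of its batch. These probes stand for 6 genes: Hspa8, Hspa9, Hspa4, Bag1, Hsf1 and Hsf2. The only probe of Bag3 (6660653) and the only probe of Hspa14 (2750647) were detected on 0 of 21 arrays, as were probe 110703 of Hsf1 and probes 3420609 and 4050630 of Hspa4. The name Bag factors thus rests on Bag1 alone in these data. Raw intensities of the untested probes lay between 96.2 and 206.9, those of the tested ones between 105.9 and 41667. The bead standard error of a tested probe on 1 array was 1.85 to 8.65% of its intensity.

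The arrays differed in brightness. The 95th percentile of intensity was 277.4 to 1857.1 in batch A, where it was 732.7, 277.4 and 1110.7 on 18 kHz replicates 1, 2 and 3 and at least 1401.8 on the other 6 arrays, and 846 to 1563.7 in batch B. The number of detected probes was 9420 to 14355 for batch A arrays and 12004 to 13234 for batch B arrays. Of 13 marker genes of the line and of early B cells, 5 were detected on every array (Il3ra, Csf2rb, Csf2rb2, Ptprc and Cd79b) and 5 on none, among them the B-lineage genes Pax5, Igll1 and Rag1. Of the other lineages, 3 of 4 neutrophil markers (Mpo, S100a8 and Ltf), 3 of 4 mast cell and basophil markers (Cpa3, Mcpt8 and Gata2), 1 of 3 macrophage, 1 of 3 erythroid and 0 of 3 T cell markers were detected on every array. Levels below are log2 normalized intensities, changes are differences of group means with 95% intervals, and a change passed at a limma p below 0.05 after Benjamini-Hochberg adjustment over all tested probes of the comparison. Levels of different probes were not compared with each other, apart from the within-array differences of the Hspa8 probes and the choice of a gene's brightest probe.

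Hspa8 was represented by 3 bright probes, and 1 of them, probe 2030593, was lower after 18 kHz actuation and after 47 °C. On this probe the untreated arrays of batch A read 11.58, 11.40 and 11.54, the 1 kHz arrays 11.30, 11.34 and 11.31, and the 18 kHz arrays 10.31, 9.89 and 10.75. All 18 kHz values lay below all others of the batch, and the 1 kHz values lay below the untreated ones. The fall of this probe at 18 kHz was 1.19 log2, or 2.28-fold (95% interval -1.64 to -0.74, adjusted p = 0.0244). Against 1 kHz the change was -1.0 (-1.45 to -0.55, adjusted p = 0.0427), and 1 kHz against untreated gave -0.19 (-0.64 to 0.26, adjusted p = 1.00). In RNA from whole samples, less of a transcript in every cell and fewer cells that hold it cannot be told apart.

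It was the only 1 of the 9 tested member probes that passed at 18 kHz, where 2.94% of all probes passed and 1.66% passed as lower. An unadjusted p below 0.05 was found for 3 of 9 members, beside 28.3% of all probes, and groups did not overlap for 3 of 9, beside 30.3% of all probes. Against 1 kHz it was again 1 of 9, beside 2.41% of all probes and 0.955% that passed as lower. There 2 of 9 had an unadjusted p below 0.05, beside 26.9% of all probes, and 3 of 9 did not overlap, beside 28.6%. At 1 kHz 0 of 9 passed in limma, as did 0% of all probes. There 0 of 9 had an unadjusted p below 0.05, beside 1.78% of all probes, and 2 of 9 did not overlap, beside 13.3% of all probes. The members' shares by these looser measures were near those of all probes. The call at 18 kHz was lost without untreated replicate 1, 2 or 3 or without 18 kHz replicate 1 (adjusted p from 0.0753 to 0.114), and in the fit blocked on beadchip (-1.18, adjusted p = 0.0538). On the beadchip that held all 3 untreated and 2 of the 18 kHz arrays the change was -1.19 (adjusted p = 0.310). With 18 kHz replicate 3 alone, the other 2 being dimmer, it was -0.76 (adjusted p = 0.0624, this array being assumed to vary like the other groups). The call against 1 kHz was lost without any 1 kHz array or without 18 kHz replicate 1 (adjusted p from 0.0879 to 0.174), in the fit blocked on beadchip (-1.01, adjusted p = 0.0720) and in that blocked on replicate number (adjusted p = 0.0646). On beadchip 1 alone, with 1 array at 1 kHz, this change was -1.02 (adjusted p = 0.683), on beadchip 2 alone, with 1 array at 18 kHz, -1.0 (adjusted p = 0.00328), the lone array being assumed to vary like the others, and with 18 kHz replicate 3 alone -0.57 (adjusted p = 0.120). Quantile normalization gives all arrays of a batch 1 distribution. With scaling by the median only, all probes shifted by a median of -1.09 at 18 kHz, and probe 2030593 lay 1.38 below that shift.

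**Figure D1:**
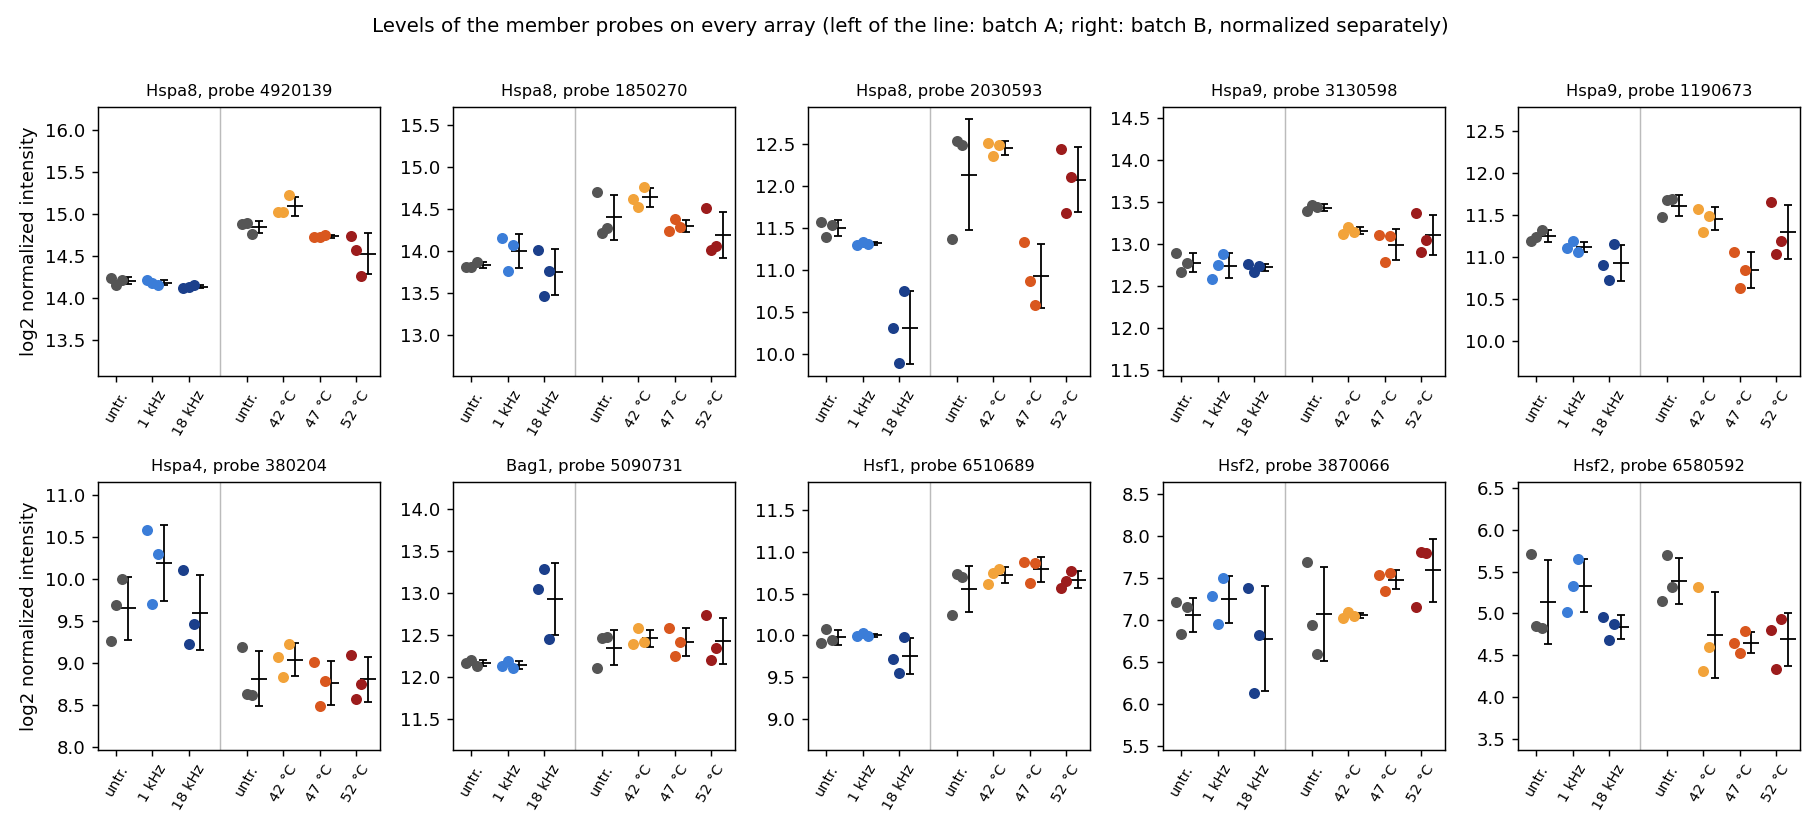
Log2 normalized intensity (y axis, each panel spanning the same range) of the 10 member probes tested in at least 1 batch, on each of the 21 arrays. Points are arrays, bars are mean ± SD (n = 3), and batch A (left of the line) and batch B were normalized separately, so levels are compared within a batch. Hspa8 probe 2030593 is lower on the 18 kHz and 47 °C arrays, whereas the other 2 Hspa8 probes stay near their untreated level.

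In batch B the untreated arrays of probe 2030593 read 11.37, 12.54 and 12.49, the 42 °C arrays 12.52, 12.36 and 12.49, the 47 °C arrays 11.33, 10.87 and 10.58, and the 52 °C arrays 12.45, 11.67 and 12.11. The untreated replicate 1 lay more than 1 log2 below the other 2 and just above the highest 47 °C array. The fall at 47 °C was 1.21 log2, or 2.31-fold (-1.86 to -0.55, adjusted p = 0.0323). From 42 to 47 °C the fall was 1.53 log2, or 2.89-fold (-2.18 to -0.88, adjusted p = 0.0190). In order of the group means 42 °C came first (12.46 ± 0.08, SD, n = 3), then untreated (12.13 ± 0.66), 52 °C (12.08 ± 0.39) and 47 °C (10.93 ± 0.38). No neighbours in that order passed the test: 42 °C differed from untreated by 0.33 (-0.33 to 0.98, adjusted p = 0.665), 52 °C from untreated by -0.06 (-0.71 to 0.59, adjusted p = 0.920) and 52 from 47 °C by 1.15 (0.50 to 1.80, adjusted p = 0.0537).

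The call at 47 °C was lost without untreated replicate 2 or 3 or 47 °C replicate 2 or 3 (adjusted p from 0.0757 to 0.121), and without untreated replicate 1 the fall was 1.59 (adjusted p = 0.00951). With beadchip as a block it was 1.21 (adjusted p = 0.0291), on beadchip 1, with 1 array of each group, 0.50 (adjusted p = 0.765), and on beadchip 2, with 2 of each, 1.56 (adjusted p = 0.0483). With replicate number as a block the adjusted p was 0.0556. The step from 42 to 47 °C lost its call without 42 °C replicate 1, 2 or 3 or 47 °C replicate 2 or 3 (adjusted p from 0.0514 to 0.0842). Blocked on beadchip it was -1.63 (adjusted p = 0.0172), and on the 2 beadchips alone, each with 1 group of 1 array, -1.63 and -1.41 (adjusted p = 0.241 and 0.199). Median scaling shifted all probes by -0.46 at 47 °C, and the probe lay 1.21 below that shift. The rise from 47 to 52 °C passed in the fit blocked on beadchip (adjusted p = 0.0367) and also without 47 °C replicate 1 (adjusted p = 0.0319).

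The other 2 probes of Hspa8 did not pass in any comparison. Probe 4920139 read 14.24, 14.16 and 14.22 on the untreated arrays of batch A, 14.21, 14.18 and 14.16 at 1 kHz and 14.12, 14.13 and 14.16 at 18 kHz. The groups overlapped and spanned a narrow range. Its change at 18 kHz was -0.07 (-0.28 to 0.15, adjusted p = 0.656), and that of probe 1850270 was -0.08 (-0.46 to 0.29, adjusted p = 0.756). In batch B, probe 4920139 read 14.88, 14.89 and 14.77 untreated, 15.02, 15.03 and 15.23 at 42 °C, 14.72, 14.73 and 14.75 at 47 °C, and 14.74, 14.57 and 14.26 at 52 °C. All 42 °C arrays lay above and all 47 and 52 °C arrays below the untreated ones, with small differences. The changes were 0.25 (-0.06 to 0.55), -0.11 (-0.42 to 0.20) and -0.32 (-0.63 to -0.01, adjusted p = 0.151). Without 52 °C replicate 1 the last of these was -0.43 and passed (adjusted p = 0.0365). In that setting 3689 of all 13773 probes passed, beside 1761 with all arrays. Probe 1850270 changed by 0.24 at 42 °C, by -0.10 at 47 °C (-0.47 to 0.27) and by -0.21 at 52 °C (-0.58 to 0.16).

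Within each array, the level of probe 2030593 minus the mean of the other 2 Hspa8 probes was -2.44, -2.58 and -2.51 in untreated cells of batch A and -3.76, -3.91 and -3.21 at 18 kHz. In batch B it was -3.42, -2.01 and -2.03 untreated and -3.15, -3.68 and -3.94 at 47 °C. The groups did not overlap at 18 kHz, and at 47 °C untreated replicate 1 lay inside the range of the heated arrays. The mean differences were -1.11 and -1.10, with exact two-sided permutation p of 0.1 and 0.2 (0.16 and 0.267 adjusted over 8 comparisons), where 3 against 3 arrays cannot give a p below 0.1. The same exact permutation p of 0.1 (0.16 adjusted) was reached by 1 kHz against untreated (-0.26), 18 against 1 kHz (-0.85), 47 against 42 °C (-1.18) and 52 against 47 °C (1.31), and 42 and 52 °C against untreated gave 0.08 and 0.21 (p = 1). All 3 probes are assigned to the same accession, and which part of the transcript each reads is not given in the sources used here. The files pair no probe with its sequence, so what sets probe 2030593 apart was not tested.

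**Figure D2:**
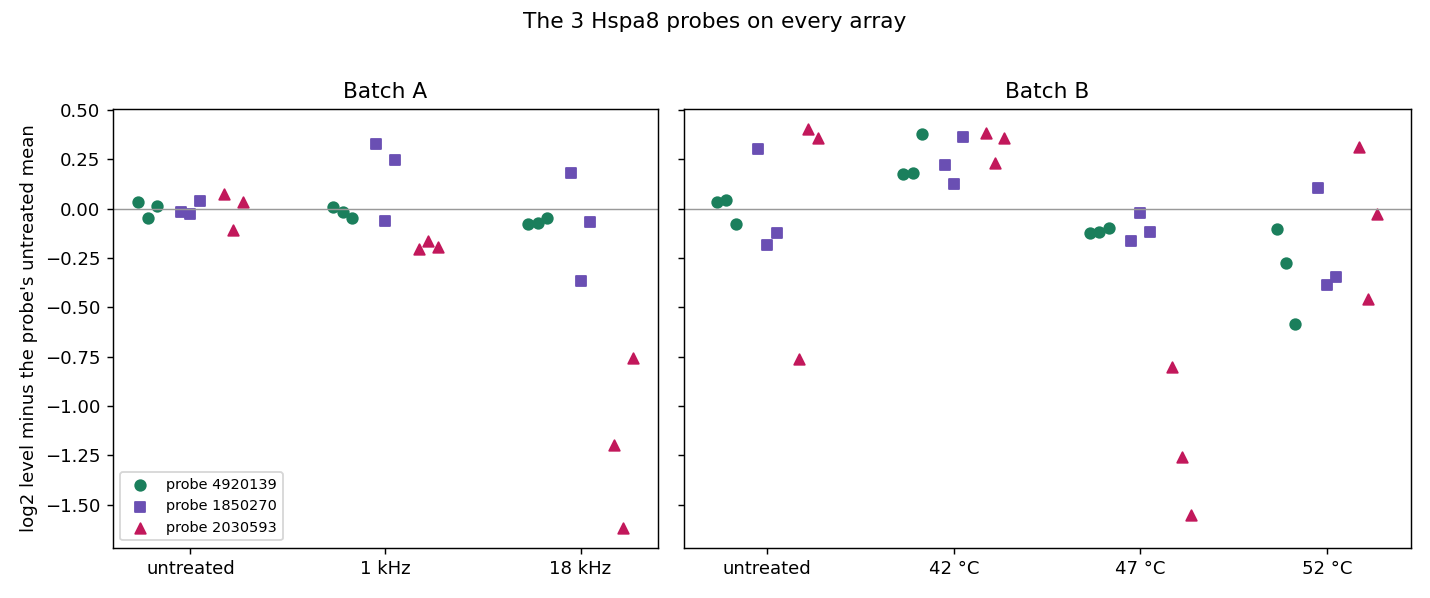
Level of the 3 Hspa8 probes on every array minus the probe's mean in the untreated arrays of its batch (y axis, log2), by group. Each marker is 1 array. Probe 2030593 (triangles) is the lowest probe on each 18 kHz array, at levels of 10.31, 9.89 and 10.75, and its 47 °C values, at levels of 11.33, 10.87 and 10.58, are the 3 lowest of batch B, while the other probes stay closer to zero.

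Hspa9, the mitochondrial form, was lower at 47 °C on 1 of its 2 probes. Probe 1190673 read 11.47, 11.69 and 11.69 untreated, 11.57, 11.31 and 11.50 at 42 °C, 11.06, 10.64 and 10.85 at 47 °C, and 11.66, 11.04 and 11.19 at 52 °C. The 47 °C arrays lay below all untreated and 42 °C arrays and overlapped those at 52 °C. The fall at 47 °C was 0.77 log2, or 1.7-fold (-1.15 to -0.38, adjusted p = 0.0256). The second probe, 3130598, read 13.39, 13.47 and 13.44 untreated and 13.10, 12.78 and 13.09 at 47 °C, again with no overlap, and its change of -0.44 (-0.76 to -0.12) did not pass (adjusted p = 0.0848). At 42 °C the 2 probes changed by -0.16 (-0.54 to 0.22) and -0.28 (-0.60 to 0.04), and at 52 °C by -0.32 (-0.70 to 0.06) and -0.33 (-0.65 to -0.01, adjusted p = 0.152). Without 52 °C replicate 1 both passed at 52 °C, at -0.50 (adjusted p = 0.0365) and -0.46 (adjusted p = 0.0266), as did 3689 of all 13773 probes.

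Thus 2 of 10 member probes passed at 47 °C, both lower, beside 7.83% of all probes, 4.41% as lower. An unadjusted p below 0.05 was found for 4 of 10, beside 25.8% of all probes, and 5 of 10 had groups that did not overlap, beside 34% of all probes. Both counts include Hsf2 probe 6580592, which met the detection filter only through 2 untreated arrays and 1 at 42 °C. Its fall follows in part from that filter. The call of probe 1190673 was lost without untreated replicate 2 or 3 or 47 °C replicate 2 or 3 (adjusted p from 0.0726 to 0.0909). With beadchip as a block it was -0.77 (adjusted p = 0.0268), and on the 2 beadchips alone -0.84 (adjusted p = 0.666) and -0.73 (adjusted p = 0.0563). Where each gene was represented by its brightest probe only, 0 members passed at 47 °C, since the brighter probes of Hspa8 and Hspa9 did not pass. After 18 kHz the Hspa9 probes changed by -0.32 (-0.62 to -0.03, adjusted p = 0.152) and -0.06 (-0.33 to 0.21). Without 18 kHz replicate 3 the first was -0.44 and passed (adjusted p = 0.0227). In that setting 4428 of all 14130 probes passed, beside 416 with all arrays.

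Over the 12 arrays of batch B, taken relative to the untreated mean, the probes with the pattern most like that of Hspa8 probe 2030593 were those of Eif3c (root mean square difference 0.283 log2), Rnf4 (0.288) and Mthfd1 (0.291). Those most like Hspa9 probe 1190673 were of Baz1a (0.0870), Psmc5 (0.103) and Plscr1 (0.111). All of these probes share the same 12 arrays and were picked from all tested probes by that measure.

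Hspa4, which encodes the HSP110-like exchange factor APG-2, did not pass anywhere on its 1 tested probe, 380204. Its batch A levels were 9.26, 9.70 and 10.01 untreated, 10.58, 9.70 and 10.30 at 1 kHz and 10.10, 9.23 and 9.47 at 18 kHz, so the groups overlapped. The change was 0.54 at 1 kHz (-0.16 to 1.24, adjusted p = 1.00) and -0.05 at 18 kHz (-0.75 to 0.64). In batch B the group means were 8.81 ± 0.33 untreated, 9.04 ± 0.20 at 42 °C, 8.76 ± 0.26 at 47 °C and 8.81 ± 0.27 at 52 °C. The intervals of the heat changes reached from -0.50 to 0.68.

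**Figure D3:**
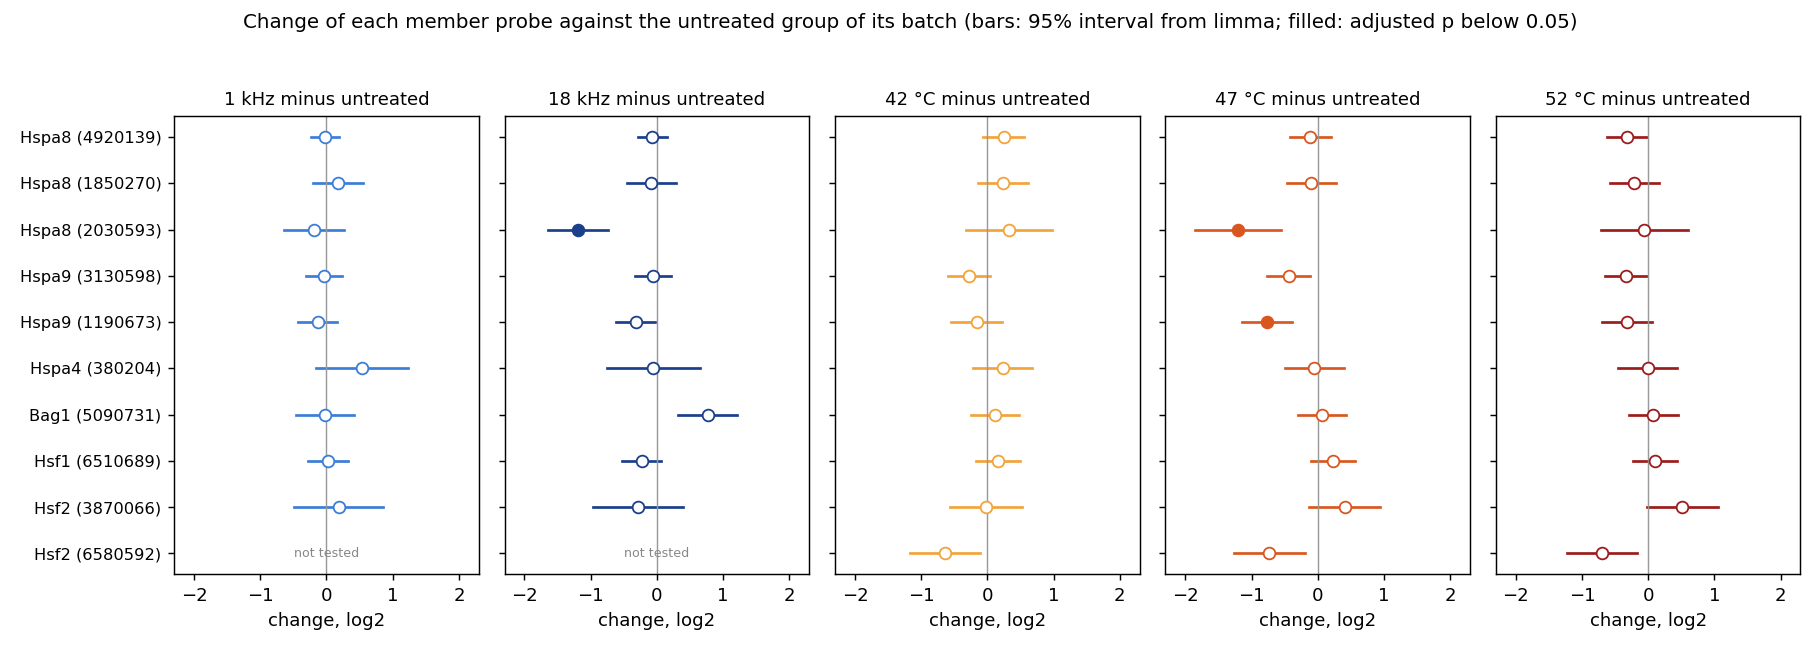
Change of each tested member probe against the untreated group of its batch (x axis, log2), with 95% intervals from limma, in 5 panels for 1 kHz, 18 kHz, 42, 47 and 52 °C. Filled points passed at an adjusted p below 0.05, which are Hspa8 probe 2030593 at 18 kHz and 47 °C and Hspa9 probe 1190673 at 47 °C.

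Bag1, a nucleotide exchange factor that links HSP70 to the proteasome, was higher on all 18 kHz arrays but did not pass. Probe 5090731 read 12.17, 12.20 and 12.13 untreated, 12.13, 12.19 and 12.10 at 1 kHz, and 13.05, 13.29 and 12.46 at 18 kHz. All 6 arrays of the former groups lay close together and below the 3 of the latter. The change at 18 kHz was 0.77, or 1.7-fold (0.32 to 1.21, adjusted p = 0.0642), and against 1 kHz 0.79 (0.35 to 1.23, adjusted p = 0.0643), but with scaling by the median only the signs turned, to -0.24 and -0.17, which is 0.85 and 0.96 above the shift of all probes. The rise passed in 7 of 21 alternatives against untreated, and in 8 of 22 against 1 kHz. Among the former was the fit without 18 kHz replicate 3 (1.00, adjusted p = 0.00162), where 4428 of all 14130 probes passed. The others were array weights, the deposited log2 table, detection on every array, no background correction, an offset of 50 and the trended prior. These settings also raised the number of all probes that passed. The alternatives against 1 kHz include fits with 1 array at 18 kHz. Without both dimmer 18 kHz arrays the change was 0.29. With beadchip as a block it was 0.75 (adjusted p = 0.103), and on the shared beadchip 0.71 (adjusted p = 0.329). Raw intensities of this probe were 5407.7 to 5781.9 on the untreated arrays and 5756.2, 2334 and 5226.8 on the 18 kHz arrays. Before normalization the 18 kHz arrays therefore did not lie above the untreated ones. In batch B, Bag1 levels were 12.35 ± 0.21 untreated, 12.46 ± 0.10 at 42 °C, 12.42 ± 0.16 at 47 °C and 12.43 ± 0.28 at 52 °C, with changes of 0.11 (-0.25 to 0.48), 0.07 (-0.30 to 0.43) and 0.08 (-0.29 to 0.45).

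The probe assigned to Hspbp1, whose product releases nucleotide from HSP70 and opposes ubiquitination of its clients, stands outside the 15. It read 7.50, 7.37 and 7.52 untreated, 7.51, 6.96 and 7.28 at 42 °C, 6.94, 7.30 and 7.0 at 47 °C and 7.27, 6.30 and 6.23 at 52 °C. The 52 °C arrays lay below all untreated ones, 2 of them by about 1 log2. The change at 52 °C was -0.86 (-1.39 to -0.33, adjusted p = 0.0382), and it was lost without untreated replicate 1, 2 or 3 or 52 °C replicate 2 or 3 (adjusted p from 0.0762 to 0.151). In batch A this probe did not pass. There it changed by -0.05 at 1 kHz (-0.43 to 0.32) and by -0.28 at 18 kHz (-0.65 to 0.09, adjusted p = 0.285). Between 18 and 1 kHz the change was -0.22 (-0.60 to 0.15, adjusted p = 0.377). On the 10 member probes themselves 0 passed at 52 °C in limma, beside 12.8% of all probes, while 3 had an unadjusted p below 0.05, beside 29.9% of all probes, and 3 did not overlap, beside 31% of all probes. Both counts of 3 include Hsf2 probe 6580592, which met the detection filter only through 2 untreated arrays and 1 at 42 °C.

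Hsf1, the main heat shock transcription factor, was read by probe 6510689. Its levels were 9.91, 10.08 and 9.94 untreated, 9.99, 10.02 and 9.99 at 1 kHz and 9.72, 9.55 and 9.98 at 18 kHz. The 18 kHz range overlapped the untreated one at its upper end, and the change was -0.23 (-0.52 to 0.07, adjusted p = 0.275). Without 18 kHz replicate 3 it was -0.34 and passed (adjusted p = 0.0472), as did 4428 of all 14130 probes. In batch B the levels were 10.24, 10.74 and 10.70 untreated, 10.61, 10.75 and 10.80 at 42 °C, 10.87, 10.62 and 10.87 at 47 °C, and 10.57, 10.65 and 10.77 at 52 °C. All groups overlapped. The heat changes were 0.16 (-0.18 to 0.50), 0.23 (-0.11 to 0.56) and 0.11 (-0.23 to 0.44), with adjusted p of 0.687, 0.379 and 0.685.

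Hsf2, a related factor best known from development, was read by 2 dim probes, neither of which passed. Probe 3870066 read 7.69, 6.94 and 6.59 untreated, 7.03, 7.09 and 7.05 at 42 °C, 7.54, 7.35 and 7.56 at 47 °C and 7.16, 7.82 and 7.80 at 52 °C. It changed by -0.02, 0.41 and 0.52 at the 3 temperatures, the last with an adjusted p of 0.183. Without untreated replicate 1 or 52 °C replicate 1 the last passed, at 0.83 (adjusted p = 0.0418) and 0.73 (adjusted p = 0.0481). In the latter setting 3689 of all 13773 probes passed. Probe 6580592 was detected on 2 of 3 untreated arrays, 1 of 3 at 42 °C and 0 of 3 at 47 and 52 °C. It met the detection filter of batch B only through these arrays, so its falls follow in part from that filter. They add no independent support to the counts of member probes at 42, 47 and 52 °C. Its fitted changes were -0.64, -0.73 and -0.69 with adjusted p of 0.232, 0.0855 and 0.0795, and levels this near background give no fold. In batch A, probe 3870066 changed by 0.18 at 1 kHz (-0.49 to 0.86) and by -0.28 at 18 kHz (-0.96 to 0.39), where it was detected on 2 of 3 arrays. Probe 6580592 was detected on 2 of 9 arrays of batch A and was not tested there.

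At 42 °C, 0 of 10 member probes passed in limma, beside 2.38% of all probes, while 1 had an unadjusted p below 0.05, beside 14.9% of all probes, and 2 did not overlap, beside 27.2% of all probes. The 1 was Hsf2 probe 6580592, which was lower and met the detection filter only through 2 untreated arrays and 1 at 42 °C. Genes known to be driven by HSF1 did rise at 42 °C. Of 16 measured HSF1 targets outside the members, from 22 listed, 5 were higher and 0 lower at 42 °C (31.2%), and their median change was 0.35 against 0.00 for all probes. Dnajb1, the J-protein HSP40, read 11.01, 10.82 and 10.99 untreated and 14.83, 14.98 and 14.84 at 42 °C, a rise of 3.94 (adjusted p = 2.02e-09). Hsph1, the inducible HSP110, rose by 3.55 (adjusted p = 1.35e-06) and its relative Hspa4l by 2.67 (adjusted p = 5.89e-06). The stress-inducible HSP70 genes, read by probe 2350017 of Hspa1a and probe 4040670 of Hspa1b, were not detected on untreated arrays and detected on 3 of 3 arrays at 42 °C. Of their other probes, 4860470 and 6270685 of Hspa1a were detected on 0 and 3 of the 12 arrays of batch B. Probe 3450035 of Hspa1b was detected on 2. With the untreated level set at the lowest detected signal of each array, Hspa1a rose at least 10.7-fold (adjusted p = 3.87e-09) and Hspa1b at least 2.72-fold (adjusted p = 1.82e-06). Both probes met the detection filter of batch B only through their 42 °C arrays. Their p-values and their places among the 5 of 16 therefore follow in part from that filter and add no independent support. Dnajb1, Hsph1 and Hspa4l were detected on all arrays of the batch, so their rises do not rest on it. The rises of all 5 genes passed whichever of the 6 arrays was left out. The 3 Hspa8 probes changed by 0.24, 0.25 and 0.33 at 42 °C, with upper limits of 0.61, 0.55 and 0.98. Hspa4 changed by 0.23 (-0.22 to 0.68), while its family members Hspa4l and Hsph1 rose.

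At 47 °C 0 of these 16 targets passed (median -0.05), beside 7.83% of all probes, and at 52 °C 1 passed, beside 12.8% of all probes. The latter was the ubiquitin gene Ubb, which was lower (-0.57, adjusted p = 0.0238, reaching 0.106 when untreated replicate 2 or 3 or 52 °C replicate 2 was left out). Probe 2350017 of Hspa1a and probe 4040670 of Hspa1b were not detected at either temperature. From 42 to 47 °C 6 of the 16 fell (37.5%, beside 2.38% of all probes): the 5 named here (Hspa1a at least 9.60-fold and Hspa1b at least 2.44-fold), and the HSP90 gene Hsp90aa1 (-0.95, adjusted p = 0.0406), whose call was kept only without 47 °C replicate 2. Among these 6, Hspa1a and Hspa1b were tested only because of their 42 °C arrays, so they add no independent support to the count. Of the member probes 1 of 10 fell from 42 to 47 °C, Hspa8 probe 2030593, beside 1.3% of all probes that passed as lower. An unadjusted p below 0.05 was found for 3 of 10, beside 16.9% of all probes, and 6 of 10 did not overlap, beside 24.5% of all probes. From 47 to 52 °C 0 of 16 targets and 0 of 10 member probes passed, beside 3.46% of all probes, while 2 of the 10 had an unadjusted p below 0.05, beside 23.1% of all probes, and 1 did not overlap, beside 22.1% of all probes. At 18 kHz 0 of 14 measured targets passed, beside 2.94% of all probes, with a median of -0.11. No array of batch A detected Hspa1a or Hspa1b.

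**Figure D4:**
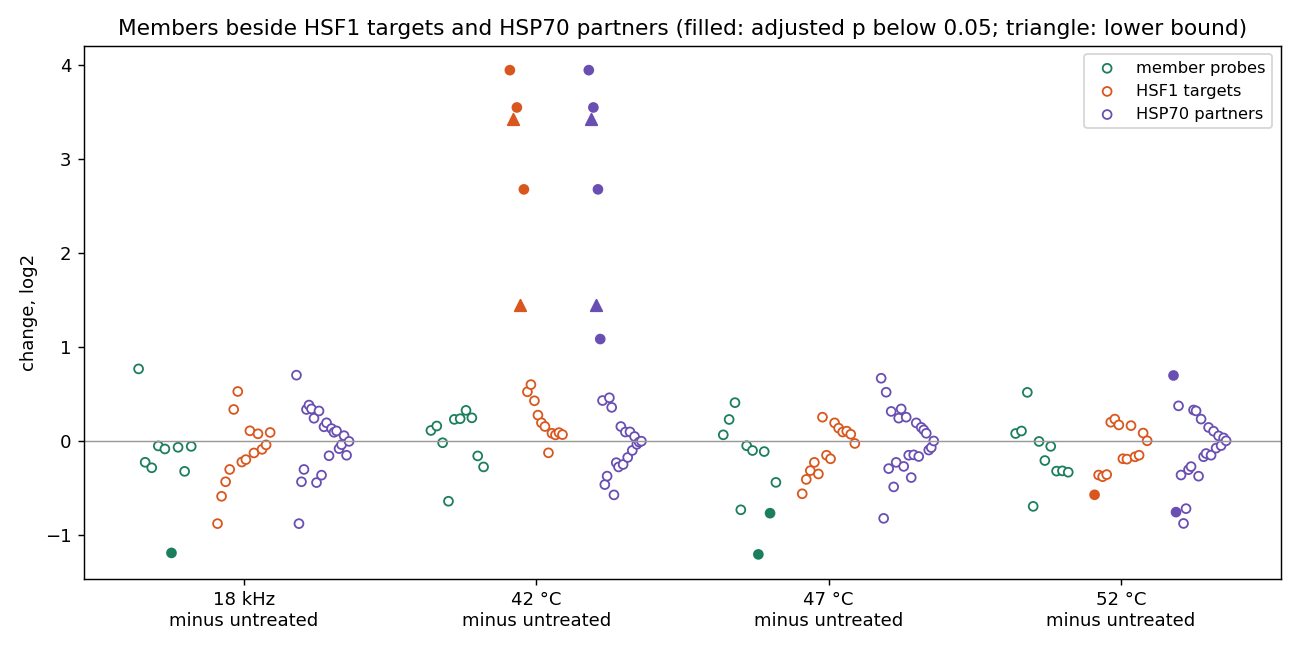
Change against untreated (y axis, log2) of the member probes, of HSF1 targets and of HSP70 partners at 18 kHz and at 42, 47 and 52 °C. Each point is 1 probe, filled where the adjusted p was below 0.05, triangles are lower bounds for genes not detected in untreated cells, genes detected in neither group are left out, and genes on both lists appear in both. At 42 °C the 5 targets that passed lie above all member probes, which lie between -0.64 and 0.33. The lowest of these is Hsf2 probe 6580592, whose levels are near background.

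Of 32 listed names of other HSP70-family genes, J-proteins, exchange factors and adaptors, 24 were measured in batch B and 22 in batch A. Bag6 stands in that list also under its older name Bat3. At 42 °C 6 were higher and 0 lower (25%, beside 2.38% of all probes), the 5 genes named as targets and the J-protein gene Dnajb4 (1.08, adjusted p = 0.0273, reaching 0.123 when any untreated array or 42 °C replicate 2 or 3 was left out). At 47 °C 0 passed, beside 7.83% of all probes, and at 52 °C 2 did (8.33%, beside 12.8% of all probes): Dnajb2, a J-protein that guides clients to the proteasome, was higher (0.70, adjusted p = 0.0390) and Dnajb4 lower (-0.76, adjusted p = 0.0495). Both of these calls were kept only without 52 °C replicate 1, where 3689 of all 13773 probes passed. From 42 to 47 °C 6 fell and 1 rose (29.2%, beside 2.38% of all probes). The rise was that of the J-protein gene Dnaja2 (0.62, adjusted p = 0.0483, and up to 0.165 with an array left out). In both counts of 6 genes, at 42 °C and from 42 to 47 °C, Hspa1a and Hspa1b were measured only because of their 42 °C arrays. At 18 kHz 0 of 22 passed, beside 2.94% of all probes. The other Bag genes measured, Bag2, Bag4, Bag5 and Bag6, passed in none of the comparisons with untreated, with changes between -0.49 and 0.25. At 1 kHz 0 genes of the lists passed.

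Of 20 listed HSF relatives and regulators of HSF1, 15 were measured in batch A and 14 in batch B. At 18 kHz 1 was lower (6.67%, beside 2.94% of all probes), Sirt1, whose deacetylase prolongs DNA binding by HSF1 (-0.80, adjusted p = 0.0297, reaching 0.135 when an untreated array or 18 kHz replicate 1 was left out). At 42 °C 0 passed, beside 2.38% of all probes. At 47 °C 2 were lower (14.3%, beside 7.83% of all probes), Ptges3, which encodes the HSP90 co-chaperone p23 (-0.56, adjusted p = 0.0281, and kept only without 47 °C replicate 2), and the kinase gene Camk2g (-0.64, adjusted p = 0.0399, and lost whichever array was left out). At 52 °C Sirt1 (-0.94, adjusted p = 0.0144), the kinase gene Gsk3b (-0.91, adjusted p = 0.0261) and Camk2g (-0.57, adjusted p = 0.0468) were lower, and the deacetylase gene Hdac6 was higher (0.48, adjusted p = 0.0498), which makes 28.6% of the list beside 12.8% of all probes. Without single arrays their adjusted p reached 0.0635, 0.113, 0.148 and 0.161. From 42 to 47 °C 1 of these 14 fell (7.14%, beside 2.38% of all probes), Hsp90aa1, which stands on the target list too. The changes of Hsf1 and of these regulators are changes in transcript level, and the activity of the HSF1 protein was not measured.

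The change at 18 kHz was set against each heat change in a joint fit of all 21 arrays, which takes each change against its own untreated group. Of 10 member probes 0 differed in any of the 3 comparisons in limma, beside 1.46% of all probes for 42 °C, 0.197% for 47 °C and 0.76% for 52 °C. At an unadjusted p below 0.05 there were 3, 2 and 2 of 10, beside 17%, 14% and 17.8% of all probes. For Hspa8 probe 2030593 the 18 kHz change minus the 47 °C change was -0.08 (-0.90 to 0.74, adjusted p = 0.954), an interval that leaves room for differences of up to 0.9 log2. Minus the 42 °C change it was -1.55 (-2.37 to -0.74, adjusted p = 0.0549), which passed without 18 kHz replicate 3 (adjusted p = 0.00981) or untreated replicate 2 of batch B (adjusted p = 0.0474). Minus the 52 °C change it was -1.19 (-2.01 to -0.37, adjusted p = 0.129), which passed without 18 kHz replicate 3 (adjusted p = 0.0337). For Bag1 the 3 differences were 0.67 (0.13 to 1.21), 0.72 (0.17 to 1.26) and 0.70 (0.16 to 1.24), with adjusted p of 0.206, 0.226 and 0.170. With scaling by the median only they were -0.26, 0.12 and 0.20, and with 18 kHz replicate 3 as the only 18 kHz array 0.19, 0.24 and 0.22. Each passed without 18 kHz replicate 3 (adjusted p from 0.0164 to 0.0205), and the last also without 52 °C replicate 1 (adjusted p = 0.0465). In the 3 comparisons 1572, 844 and 1294 of all 15255 probes passed without 18 kHz replicate 3, beside 222, 30 and 116 with all arrays. In the last, 1233 passed without 52 °C replicate 1. Batch and kind of treatment cannot be told apart here except through the untreated group of each batch.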

How the data were processed

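The authors deposited, for each batch, the average bead intensity of every probe without normalization or background subtraction, per the file headers, from GenomeStudio (gene expression module 1.7.0 for batch A and 1.9.0 for batch B, per the file headers). Beside it stand the deposited detection p-value, bead standard error and bead number. The labels' beadchip positions tied arrays to samples. Of 12 arrays in batch A 3 matched no sample and were not used. Background was removed per batch with limma 3.58.1 (in R 4.3.3) by the normal-exponential model from detection p-values, with an offset of 16. Intensities were then quantile normalized and put on the log2 scale. Of 45281 probes 14130 and 13773 were tested (15255 in the joint fit). Groups were compared with limma's moderated linear model, two-sided, over all tested probes. An alternative used the deposited log2 table, in which the authors centred each probe on a median of 0, as its values show, by a method not given in the sources used here. Its 40083 probes were matched through batch B intensities, since in the table of manufacturer identifiers 1 of 45281 rows held the same probe for both batches. Across probes, array deviations in it correlated with those of log2 intensity at 0.807 to 0.988 in batch B and 0.230 (18 kHz replicate 2) to 0.873 in batch A.

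The members, gene lists and tests were chosen with earlier results of these data known. The lists were HSP70 partners, HSF1 targets, and HSF relatives and HSF1 regulators, each gene by its brightest probe. Named genes are all detected member probes, up to 4 called genes of smallest p per list and comparison, other called list genes of a short count, and 3 probes most like each member called under heat. The other Bag genes were named after their values were seen. Same-numbered samples deviated together (r above 0.1) in 3 of 9 pairs of batch A and 5 of 18 of batch B, so numbers were not taken to pair arrays. The fit was tested on simulated data.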

Additional observations from a re-analysis of the deposited data

How the results depend on the processing

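No member change that passed as reported reversed its direction under the alternatives run, which for list genes were only the arrays left out. Of single-probe values under alternatives 2116 kept their side of the threshold, 79 newly passed and 48 no longer passed. Numbers of member probes that passed follow, as reported first. For 18 kHz against untreated (1), it was 2 with array weights, the deposited log2 table, detection on every array, no background correction, an offset of 50 or a trended and robust prior, 5 with median scaling, and 0 with beadchip as a block, on beadchip 1 alone, with 1 probe per gene, with only the arrays of both groups, or without both dimmer 18 kHz arrays (added after seeing the data). For 18 kHz against 1 kHz (1), it was 2 under the same settings and on beadchip 2 alone (1 array at 18 kHz), 6 with median scaling, and 0 under those same settings and with no detection filter. With replicate number as a block it was 0 for 18 kHz against 1 kHz and 1 for 47 °C (2), and no other such count moved. For 42 °C (0) it was 1 with array weights. For 47 °C (2) it was 4 with array weights or median scaling, 1 on beadchip 2 alone or with no detection filter, and 0 on beadchip 1 alone or with 1 probe per gene. For 52 °C (0) it was 5 with array weights, 3 with median scaling, 2 with the deposited table and 1 with the trended prior. From 42 to 47 °C (1) it was 3 with the deposited table, 2 with array weights, median scaling or the trended prior, and 0 on either beadchip alone, with no detection filter or with 1 probe per gene. From 47 to 52 °C (0) it was 2 with the deposited table and 1 with array weights, beadchip as a block, detection on every array, no background correction or an offset of 50. For the 18 kHz change minus the 42 °C change (0) it was 1 with no background correction. The settings under which more member probes passed also raised the numbers over all probes. With array weights 3829 passed at 18 kHz, 3063 against 1 kHz, 1620 at 42 °C, 2767 at 47 °C and 4756 at 52 °C. With the deposited log2 values these numbers were 2451, 2211, 588, 1835 and 2809. With the trended prior 1109 passed at 18 kHz and 2091 at 52 °C. The member counts are to be read beside these totals.

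With median scaling the number of all probes that passed at 18 kHz went from 416 (181 higher, 235 lower) to 6933 (12 higher, 6921 lower), against 1 kHz from 340 (205 higher) to 7752 (8 higher), at 47 °C from 1079 (471 higher) to 4419 (88 higher), at 52 °C from 1761 (902 higher) to 4281 (171 higher), and at 42 °C from 328 (162 higher) to 320 (93 higher).

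When each array was left out in turn, the numbers ran from 0 to 4 for 18 kHz, 0 to 3 for 18 against 1 kHz, 0 to 2 at 47 °C, 0 to 4 at 52 °C, 0 to 1 for both heat steps, 0 to 2 for the 18 kHz change minus the 42 or 52 °C change and 0 to 1 minus the 47 °C change, and stayed at 0 for 1 kHz and 42 °C. Over all probes the numbers ran from 27 to 4428 of 14130 for 18 kHz and from 11 to 3911 for 18 against 1 kHz. They ran from 242 to 705 of 13773 at 47 °C and from 481 to 3689 at 52 °C. The highest for 18 kHz and for 52 °C came without 18 kHz replicate 3 and without 52 °C replicate 1. Every call of a member was lost without at least 4 single arrays. Bag3 and Hspa14 were below detection, so a fall, or a rise that stays below detection, was not detectable for either. The dim 18 kHz arrays, with a within-group correlation down to 0.943, limit that comparison.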
